A study of Mus musculus with 2 samples.

Results

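The genes of 10 surface antigens that change as thymocytes mature were followed through 6 stages of T cell development in a wild type mouse thymus library and in a library from a thymus homozygous for mutations of GATA sites 1 and 2 in the NMe, called GS1+2. The members were chosen by name, with earlier results of these data known. They are Cd24a, Thy1, Ly6d, Ly6e, Ly6a, Cd52, Cd2, Cd27, Cd28 and Cd53, which are 10 of the 27933 gene symbols in both count tables. NMe is the Notch-dependent enhancer of Myc in thymocytes, and GATA3 is the GATA factor of that tissue. Thymocyte suspensions of 5000 cells per sample were loaded for droplet 3′ single-cell sequencing (10x Genomics version 2 chemistry). There was 1 library per genotype, so no test between genotypes was possible, and every interval given is a 95% interval that covers counting error only. Strain, sex, age and the number of mice per library are not given in the labels. No member checks the genotype. Myc, the gene that this enhancer serves, had 45.3 UMIs per 1000000 over all wild type cells and 23.3 over all mutant cells. In the stages defined below, its wild type level was 135 in DN, 49.6 in cycling, 22.5 in resting DP, 33.6 in post-selection, 25.02 in semi-mature SP and 26.4 in mature SP cells, against 20.4, 21.003, 5.44, 21.3, 41.0 and 32.1 in the mutant library. These rest on 212 and 46 Myc UMIs in cycling cells, on 25 and 12 in DN cells and on 30 or fewer in each later stage.

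Of the members, 6 encode small proteins held in the outer membrane leaflet by a glycosylphosphatidylinositol (GPI) anchor: CD24, the heat stable antigen used to separate immature from mature thymocytes, Thy-1, the classical surface marker of mouse T lineage cells, the Ly6 family proteins Ly6d, Ly6e and Ly6a (Sca-1), and CD52. CD2 is an adhesion receptor that binds CD48 in the mouse. CD27 is a tumour necrosis factor receptor family member that binds CD70, CD28 is the costimulatory receptor for CD80 and CD86, and CD53 is a tetraspanin of leukocytes. Thymocytes pass from the double-negative stage (DN, without CD4 and CD8) through a proliferating phase to the resting double-positive stage (DP), are selected there on their T cell receptor, and leave the thymus as CD4 or CD8 single-positive (SP) cells.

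Cd24a lies at chr10:43578284-43584265 on the plus strand, Thy1 at chr9:44043384-44048579 (plus), Cd2 at chr3:101275899-101287939 (minus), Cd53 at chr3:106759921-106790149 (minus), Cd27 at chr6:125232622-125237010 (minus), Cd28 at chr1:60716800-60773359 (plus) and Cd52 at chr4:134082448-134095082 (minus), in GRCm38. The 3 Ly6 genes lie together on chromosome 15, Ly6d at chr15:74762056-74763620 (minus), Ly6e at chr15:74955051-74959905 (plus) and Ly6a at chr15:74994877-74998031 (minus). They share that chromosome with Myc, from which the nearest of them, Ly6d, lies 12.8 megabases away. All 10 are protein-coding genes.

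Promoter entries were present for Cd27 and Cd53, a pair that parted in the data, Cd27 being higher in resting DP than in mature SP cells and Cd53 lower. The sequences are from RefSeq on GRCm38.p6, 5′ to 3′ on the strand of the gene, 250 bases before to 50 after the start, at chr6:125236978-125237277 (minus strand) for Cd27 and chr3:106790100-106790399 (minus strand) for Cd53. Capitals mark the letters of TGTGGT (a RUNX motif) and of GAGGAAGT (an ETS motif), which reads ACTTCCTC on the other strand.
Cd27: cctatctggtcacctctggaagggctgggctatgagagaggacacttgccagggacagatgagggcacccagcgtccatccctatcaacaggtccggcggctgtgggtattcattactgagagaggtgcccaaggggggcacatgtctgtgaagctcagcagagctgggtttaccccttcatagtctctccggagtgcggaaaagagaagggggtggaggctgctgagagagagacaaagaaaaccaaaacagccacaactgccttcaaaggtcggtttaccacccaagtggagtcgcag
Cd53: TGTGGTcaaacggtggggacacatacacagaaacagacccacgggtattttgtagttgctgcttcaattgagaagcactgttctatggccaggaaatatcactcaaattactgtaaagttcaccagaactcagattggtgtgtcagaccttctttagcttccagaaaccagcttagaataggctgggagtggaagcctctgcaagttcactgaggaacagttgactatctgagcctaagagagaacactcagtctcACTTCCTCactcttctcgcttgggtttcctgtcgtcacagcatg
Both strands were searched for the GATA motif AGATAA, the RUNX motif TGTGGT, the E-box motif CACGTG, the ETS motif GAGGAAGT and the STAT motif TTCNNNGAA. The Cd53 window held TGTGGT from position -250 and GAGGAAGT on the reverse strand from position 7 after the start, which do not overlap, and the Cd27 window held none of these motifs. Of the 32851 promoters of that length in the table, 11.2% held AGATAA, 16.8% TGTGGT, 7.15% CACGTG, 3.202% GAGGAAGT and 8.30% TTCNNNGAA. These matches describe the letters of the windows only.

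In wild type, 6638880 UMIs (unique molecular identifiers, 1 per captured RNA molecule) fell in 1346 barcodes, at a median of 3323.5 each. The mutant table had 6364506 UMIs in 1737 barcodes, at a median of 2596. After filters 1338 and 1726 cells were kept, and the libraries shared 1 barcode. Cells were placed in stages by UMIs of marker genes that hold none of the 10 members. DN cells (markers such as Il2ra, Hes1 and Kit) numbered 40 in wild type and 172 in mutant, or 2.99% and 9.97% of kept cells. Cycling cells numbered 587 and 314 (43.9% and 18.2%), resting DP cells 279 and 442 (20.9% and 25.6%), post-selection cells (Itm2a, Cd69, Cd5) 92 and 130, semi-mature SP cells 144 and 225, and mature SP cells (markers such as S1pr1 and Klf2) 117 and 268 (8.74% and 15.5%). The mutant minus wild type difference in the share of cycling cells was -25.7 percentage points (-28.9 to -22.4). Levels below are UMIs of the gene per 1000000 UMIs of the stage, abbreviated CPM, and fold changes compare a gene with itself only.

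Cd24a fell in 2 steps after selection, in both libraries. In wild type its level was 642 CPM in DN, 280.2 in cycling, 291 in resting DP, 343 in post-selection, 93.3 in semi-mature SP and 15.8 in mature SP cells. The mutant values of the same stages were 581, 389, 387, 599, 163 and 25.7 CPM. The log2 ratio of semi-mature SP over post-selection cells was -1.88 in both libraries (intervals -2.45 to -1.33 in wild type, -2.24 to -1.54 in mutant), and that of mature over semi-mature SP cells was -2.56 and -2.66. Resting DP and cycling cells did not differ beyond counting error in either library. The wild type mature SP value rests on 6 UMIs in 6 cells.

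Ly6d, a Ly6 family protein found on immature lymphoid cells, fell earlier than Cd24a, between resting DP and post-selection cells. Its level in wild type was 734 CPM in DN, 757 in cycling, 1252 in resting DP, 239 in post-selection, 45.5 in semi-mature SP and 58.1 in mature SP cells. Its mutant levels were 1459.8, 696, 1505, 419.9, 60.8 and 29.997 CPM. The log2 ratio of post-selection over resting DP cells was -2.39 in wild type (-2.78 to -2.02) and -1.84 in mutant (-2.10 to -1.59), and that of semi-mature SP over post-selection cells was -2.39 and -2.79. At the step where Ly6d fell, Cd24a did not: the log2 ratio of Cd24a between post-selection and resting DP cells was 0.24 in wild type (-0.13 to 0.60) and 0.63 in mutant (0.37 to 0.89). The wild type Ly6d values after the DP stage rest on few cells, since 1 cell gave 21 of the 64 post-selection UMIs, 5 of the 20 semi-mature and 6 of the 22 mature SP UMIs.

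Thy1 and Ly6e formed another, shallower group that was highest in cycling or resting DP cells and fell at the step from DP to post-selection. Thy1 in wild type was at 491 CPM in DN, 1138 in cycling, 1325 in resting DP, 567 in post-selection, 480.0 in semi-mature SP and 480.3 in mature SP cells. Thy1 in mutant cells was at 769, 1341, 1834, 828, 398 and 440.3 CPM. Semi-mature and mature SP cells did not differ in Thy1 beyond counting error in either library. Ly6e in wild type was at 961, 1545, 1354, 571, 591 and 475 CPM in the same order of stages. Ly6e in mutant cells was at 1546, 1859, 1644, 639, 429 and 369.6 CPM. The log2 ratio of post-selection over resting DP cells was -1.22 for Thy1 and -1.25 for Ly6e in wild type, and -1.15 and -1.36 in the mutant library. Both fell again from post-selection to semi-mature SP cells in the mutant library alone. There the log2 ratios were -1.06 (-1.31 to -0.81) for Thy1 and -0.58 (-0.84 to -0.31) for Ly6e. In wild type they were -0.24 (-0.55 to 0.07) and 0.05 (-0.24 to 0.35).

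Ly6a, the stem cell antigen Sca-1 and an interferon-inducible gene, was nearly limited to SP cells among the thymocyte stages of the wild type library. Its wild type level was 0 CPM in DN cells (0 of 40 cells, where 3 UMIs would have been 16.2 CPM), 5.62 in cycling, 2.81 in resting DP and 0 in post-selection cells, against 109 in semi-mature and 89.7 in mature SP cells. Mutant cells had 40.7 CPM in DN, 4.11 in cycling, 5.44 in resting DP, 3.04 in post-selection, 74.5 in semi-mature SP and 117 in mature SP cells. Set against a floor of 3 UMIs in post-selection cells (11.2 CPM), the wild type level of semi-mature SP cells was 9.75-fold higher. The counting intervals were 80.5 to 145 CPM in semi-mature SP and 0 to 13.8 CPM in post-selection cells. That semi-mature SP value rests on few cells, since 1 cell gave 12 of the 48 UMIs. Even in SP cells few cells carried the RNA: 23 of 144 semi-mature and 20 of 117 mature wild type cells held a Ly6a UMI, and 26 of 225 and 50 of 268 mutant cells. Outside the thymocyte stages, B and antigen-presenting cells reached 1188 CPM in wild type, where 1 of 5 cells gave 26 of 28 UMIs, and 289 CPM in 39 mutant cells.

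Cd52 rose step by step from cycling to SP cells. In wild type it was at 146 CPM in DN, 125 in cycling, 626 in resting DP, 1545 in post-selection, 3289 in semi-mature SP and 3372 in mature SP cells. The mutant library had 311, 218, 602, 1382, 2759 and 2921 CPM. The last step, from semi-mature to mature SP, was within counting error in both libraries (log2 ratio 0.04 and 0.08). With every cell thinned to 1500 UMIs, 98.3% of wild type and 94.2% of mutant mature SP cells held a Cd52 UMI, against 14.8% and 15.4% of cycling cells.

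Cd2 and Cd53 were both higher in post-selection and SP cells than in cycling and resting DP cells, in each library. Cd2 in wild type was at 27.0 CPM in DN, 56.6 in cycling, 108 in resting DP, 691 in post-selection, 532 in semi-mature SP and 427 in mature SP cells. Mutant levels of Cd2 were 62.8, 113, 70.7, 822, 658 and 565 CPM. In both libraries Cd2 fell from post-selection to semi-mature SP cells (log2 ratio -0.38 in wild type and -0.32 in mutant). It fell again from semi-mature to mature SP cells (-0.32 and -0.22), with intervals that exclude 0 at both steps. Cd53 in wild type was at 91.8, 9.13, 47.8, 276, 264 and 327 CPM. Wild type Cd53 was thus present in DN cells, lowest in cycling cells and highest in mature SP cells. Its mature SP level was within counting error of that of semi-mature SP cells (log2 ratio 0.31, -0.07 to 0.69). Mutant levels of Cd53 were 96.8, 14.6, 14.1, 268, 372 and 412 CPM. The log2 ratio of post-selection over resting DP cells was 2.67 for Cd2 (2.28 to 3.08) and 2.53 for Cd53 (1.93 to 3.16) in wild type, and 3.54 and 4.24 in the mutant library. In wild type both were also higher in resting DP than in cycling cells, by log2 ratios of 0.93 (0.55 to 1.31) for Cd2 and 2.39 (1.68 to 3.09) for Cd53. This Cd53 ratio rests on 34 UMIs in resting DP cells, of which 5 cells gave 50%. In wild type resting DP cells without later markers, a subset defined below, Cd53 was at 11.7 CPM on 5 UMIs and Cd2 at 84.4 CPM. The mutant ratios of resting DP over cycling cells were -0.67 (-1.09 to -0.27) for Cd2 and -0.05 (-1.10 to 0.92) for Cd53. Mutant Cd53 rose further from post-selection to semi-mature SP cells (0.48, 0.12 to 0.84).

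The costimulatory receptors Cd27 and Cd28 peaked around selection. Cd27 in wild type was at 443 CPM in DN, 222 in cycling, 975 in resting DP, 1097 in post-selection, 530.0 in semi-mature SP and 478 in mature SP cells. Mutant levels of Cd27 were 547, 299, 1159, 1147, 742 and 502 CPM. Resting DP and post-selection cells did not differ in Cd27 beyond counting error in either library. Cd28 in wild type was at 70.2, 135, 319, 1012, 378 and 240.1 CPM, so that post-selection cells stood apart from both neighbours. Mutant levels of Cd28 were 141, 213, 417, 1059, 506 and 299 CPM. Cd28 rose by a log2 ratio of 1.66 (1.40 to 1.92) into the post-selection stage of wild type and by 1.35 (1.13 to 1.56) in mutant, and its log2 ratio into semi-mature SP was -1.42 and -1.06.

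**Figure D1:**
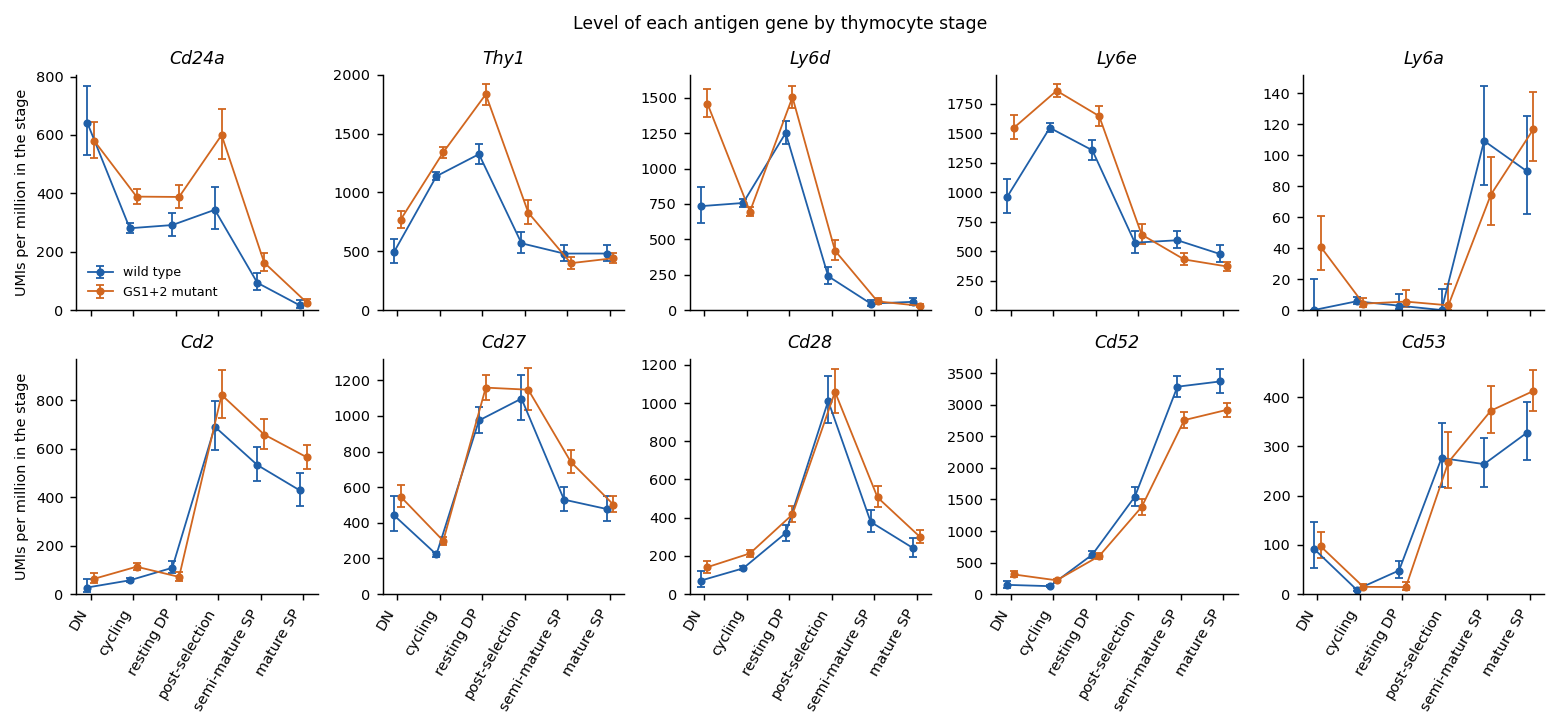
Level of each member (vertical axis, CPM of the stage, starting at 0) in 6 thymocyte stages (horizontal axis) of the wild type library (blue) and the mutant library (orange). Bars are exact 95% Poisson intervals, which cover counting error only. Cd24a, Ly6d, Thy1 and Ly6e fall towards mature SP cells, and Cd52, Cd53 and Ly6a are highest in SP cells. Cd2 and Cd28 peak in post-selection cells.

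Set against resting DP cells, the mature SP cells of each library had 4 members higher and 5 lower by more than 1.5-fold, counted after adding 5 CPM to both levels. The 4 higher members were Ly6a, Cd53, Cd52 and Cd2, the 5 lower ones Ly6d, Cd24a, Ly6e, Thy1 and Cd27, and Cd28 stayed within 1.5-fold, with the same members on each side in both libraries. Over all genes tested, 9.53% were higher and 41.6% lower in wild type, and 11% higher and 43.5% lower in mutant, so a member that was lower shared its direction with many genes. The log2 ratios of mature SP over resting DP cells, wild type first, were 4.995 and 4.42 for Ly6a, 2.77 and 4.87 for Cd53, 2.43 and 2.28 for Cd52 and 1.98 and 2.997 for Cd2. They were -4.43 and -5.65 for Ly6d, -4.20 and -3.91 for Cd24a, -1.51 and -2.15 for Ly6e, -1.46 and -2.06 for Thy1 and -1.03 and -1.21 for Cd27. The Ly6a ratio in wild type rests on 2 UMIs in resting DP cells (interval 3.03 to 8.10).

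**Figure D2:**
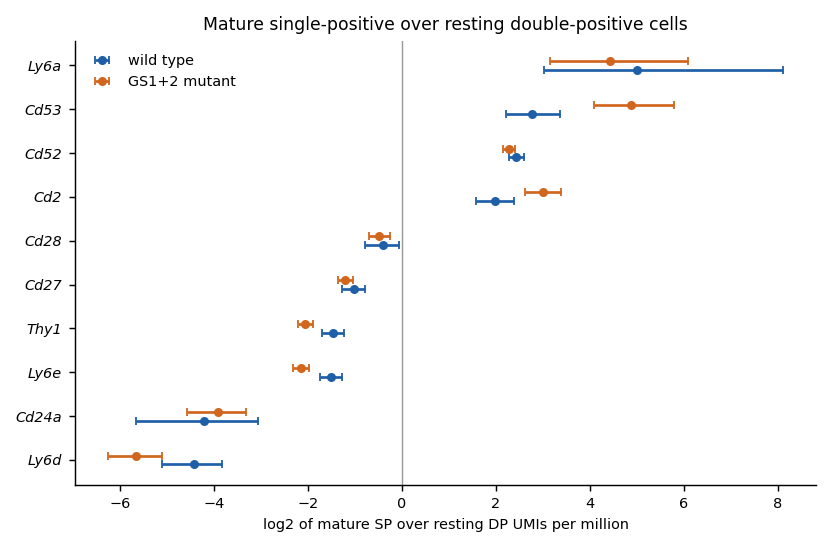
Log2 ratio of mature SP over resting DP levels (horizontal axis) for each member (vertical axis) in the wild type (blue) and mutant (orange) library, with 95% counting intervals. Every member lies on the same side of 0 in both libraries, and the intervals of Cd53, Cd2, Thy1 and Ly6e do not overlap between the libraries.

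SP cells were also divided by whether UMIs of Cd4, Cd40lg and Zbtb7b or of Cd8a, Cd8b1 and Runx3 prevailed. This gave 65 CD4 and 105 CD8 cells in wild type and 146 and 132 in mutant, and cells that met neither rule were left out. Resting DP cells held more Cd8b1 than Cd4, at 2328 and 481 CPM in wild type and 3220 and 399 in mutant. The part of RNA kept from the DP stage in this division was not tested. Thy1 was higher in CD8 than in CD4 SP cells of both libraries. Its level was 656 against 349 CPM in wild type and 584 against 334 CPM in mutant, log2 ratios of 0.91 (0.51 to 1.33) and 0.81 (0.52 to 1.09). Over all genes tested, 11.9% were higher in CD8 SP cells by more than 1.5-fold in wild type and 11.7% in mutant. Cd24a and Ly6d were also higher in CD8 SP cells in both libraries, with log2 ratios of 0.96 and 0.91 for Cd24a and 1.20 and 1.85 for Ly6d, but on 6 and 4 UMIs in the wild type CD4 cells, so that their wild type intervals include 0. The mutant Ly6d ratio rests on 11 UMIs in 6 CD4 SP cells, of which 1 cell gave 6. Cd28 was at 231 CPM in CD8 against 354 in CD4 SP cells of wild type (log2 ratio -0.61, -1.09 to -0.13) and 305 against 416 in mutant (-0.45, -0.77 to -0.13). The Cd28 ratio was past 1.5-fold in the wild type library, where 11.8% of all genes tested were lower in CD8 SP cells, beside 7% in mutant. Ly6a stood at 80.7 CPM in CD8 and 116 in CD4 SP cells of wild type, and at 156 and 69.3 in mutant (log2 ratios -0.53, -1.37 to 0.34, and 1.17, 0.56 to 1.80). The CD8 SP values of Ly6a rest on few cells in both libraries, since 1 cell gave 12 of 30 UMIs in wild type and 18 of 73 in mutant.

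Within the SP cells, those with a Cd24a UMI were compared with those without, a division chosen after seeing the data. There were 34 such cells against 227 in wild type and 71 against 422 in mutant, with a mean of 3350 against 3104 UMIs per cell in wild type and 3032 against 3261 in mutant. Of the cells with a Cd24a UMI, 28 of the 34 wild type and 51 of the 71 mutant cells were in the semi-mature SP stage, so this division is largely one of stage. Cd28 was at 474 CPM in cells with a Cd24a UMI and 288 in cells without in wild type, a log2 ratio of 0.72 (0.26 to 1.16). In the mutant library Cd28 was at 650.4 against 343 CPM, a log2 ratio of 0.92 (0.64 to 1.20). Cd27 had ratios of 0.63 (0.27 to 0.98) and 0.77 (0.54 to 1.00). Both costimulatory receptors were thus higher in the SP cells that still held Cd24a RNA, in each library. Cd52 was lower in these cells, with ratios of -0.36 (-0.54 to -0.19) and -0.34 (-0.48 to -0.20). Ly6d was higher in the mutant library (2.16, 1.41 to 2.89) and had a ratio of 0.95 in wild type with an interval that includes 0 (-0.24 to 2.01). Cd2 and Thy1 had intervals that include 0 in both libraries. Ly6a had a ratio of -1.32 (-2.98 to -0.03) in wild type and of 0.20 (-0.50 to 0.83) in mutant. These Ly6a ratios rest on 5 and 24 UMIs in the cells with a Cd24a UMI. Rag1, a gene of V(D)J recombination and a DP gate gene, was at 96.6 CPM in cells with a Cd24a UMI against 28.4 in those without in wild type (1.77, 0.56 to 2.90), and at 18.6 against 12.4 in mutant (0.59, -1.44 to 2.21). Its part in these ratios was not tested.

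The same division was made within semi-mature SP cells alone, 28 cells with a Cd24a UMI against 116 without in wild type and 51 against 174 in mutant. Cd27 then had log2 ratios of 0.60 in both libraries (0.17 to 1.01 in wild type, 0.31 to 0.88 in mutant), and Cd28 of 0.53 (0.02 to 1.02) and 1.11 (0.78 to 1.44). Cd52 had ratios of -0.42 (-0.62 to -0.23) and -0.25 (-0.42 to -0.08). These 3 members thus kept the direction they had over all SP cells, with intervals that exclude 0. Ly6d was higher in cells with a Cd24a UMI, by 1.79 (0.37 to 3.21) and 2.41 (1.44 to 3.42), on 10 and 24 UMIs in those cells, and Ly6a was lower, by -1.67 (-3.61 to -0.22) and -2.11 (-4.44 to -0.47), on 4 and 3 UMIs. Thy1 differed in the mutant library (0.77, 0.38 to 1.15) and had a wild type ratio of 0.02 (-0.47 to 0.49). Rag1 was at 101 against 29.3 CPM within this stage in wild type, 10 UMIs on each side, and at 20.7 against 15.6 in mutant.

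**Figure D3:**
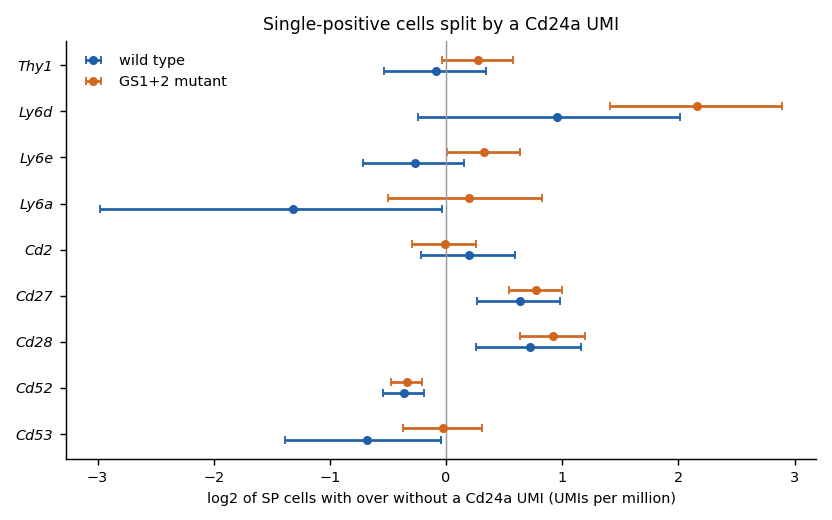
Log2 ratio of the level in SP cells with a Cd24a UMI over SP cells without one (horizontal axis), for the other 9 members (vertical axis), in wild type (blue) and mutant (orange), with 95% counting intervals. Cd27 and Cd28 lie to the right of 0 and Cd52 to the left in both libraries.

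Over all kept cells, 4 of the 10 members were higher in the mutant than in the wild type library by more than 1.5-fold and none was lower. Over all 5639 genes tested, 7.11% were higher and 2.86% lower. Cd53 was at 70.3 CPM in wild type against 159 in mutant (log2 ratio 1.18, 1.02 to 1.34), Ly6a at 25.1 and 51.3 (1.03, 0.75 to 1.31), Cd2 at 149 and 285 (0.94, 0.83 to 1.05) and Cd52 at 718 and 1213 (0.76, 0.70 to 0.81). These are the members that were higher in mature SP than in resting DP cells. With 5 CPM added, Cd2 and Cd52 were within 1.5-fold with cells thinned to 1500 UMIs (0.47 and 0.36) and with each cell given the same weight (0.49 and 0.33). Cd27 (389.9 and 579.9 CPM, 0.57) and Cd28 (218 and 319 CPM, 0.55) lay just inside 1.5-fold. Cd24a was at 267 and 321 CPM (0.27, 0.18 to 0.36), Thy1 at 1008 and 1010.3 (0.00, -0.05 to 0.05), Ly6d at 679 and 665 (-0.03, -0.09 to 0.03) and Ly6e at 1305 and 1251 (-0.06, -0.10 to -0.02). The median log2 ratio over the 10 members was 0.55, beside 0.08 over all genes tested.

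The libraries differ in their mix of stages, and when the 6 stages were given the same weight in both libraries, a comparison added after seeing the data, no member was past 1.5-fold. The log2 ratio then was 0.21 for Cd53, 0.24 for Ly6a and 0.31 for Cd2, and for Cd52 it changed sign to -0.15. Ly6d moved the other way, from -0.03 to 0.44, and Thy1 from 0.00 to 0.32. With equal weights the 10 log2 ratios lay between -0.15 and 0.44. The equal weights also leave out unassigned cells and other cell types, which the ratios over all cells include. For Ly6a, B and antigen-presenting cells alone gave 28 UMIs out of 166 over all wild type cells. In the mutant library they gave 34 out of 323. How far leaving out such cells, rather than the weights, changed each ratio was not tested.

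**Figure D4:**
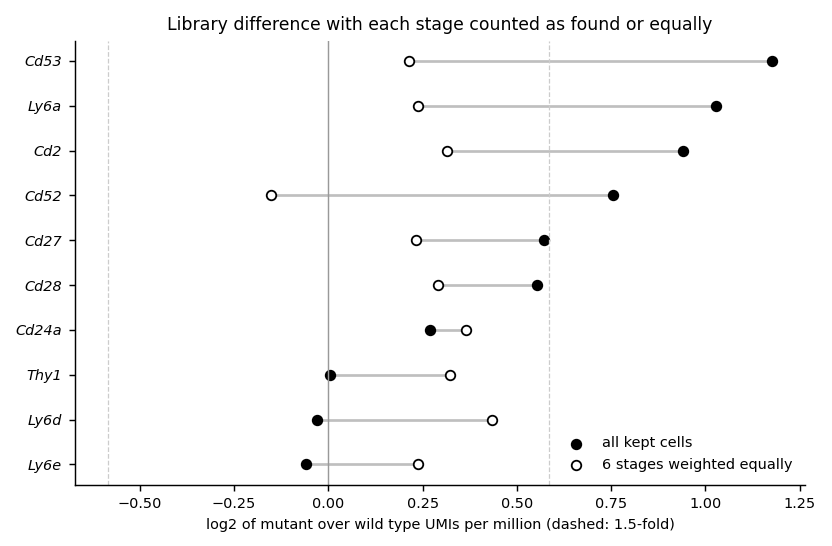
Log2 ratio of mutant over wild type level (horizontal axis, dashed lines at 1.5-fold) for each member (vertical axis), over all kept cells (filled points) and with the 6 stages weighted equally (open points). The open points leave out cells outside the 6 stages. Cd53, Ly6a, Cd2 and Cd52 lie beyond 1.5-fold over all cells and within it with equal weights, where Cd52 lies below 0.

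Stage by stage, 13 of the values of the 10 members in 6 stages were higher in the mutant library by more than 1.5-fold and 2 were lower. Of the 13, 7 were in DN cells, where 28.8% of all 4698 genes tested were also higher and 5.53% lower. In DN cells Ly6d was at 734 CPM in wild type against 1459.8 in mutant (log2 ratio 0.99, 0.73 to 1.26), Ly6e at 961 and 1546 (0.69, 0.45 to 0.93), Thy1 at 491 and 769 (0.65, 0.32 to 0.99) and Cd52 at 146 and 311 (1.09, 0.50 to 1.73). Cd28 (1.01, 0.15 to 1.97) and Cd2 (1.22, -0.13 to 2.92) rest on 13 and 5 wild type UMIs. Ly6a had 24 UMIs in 21 of 172 mutant DN cells and none in 40 wild type cells. Against a floor of 3 UMIs in wild type (16.2 CPM), its mutant level was 2.52-fold higher. The counting intervals of Ly6a were 26.1 to 60.6 CPM in mutant and 0 to 19.9 CPM in wild type. Cd24a (-0.15), Cd27 (0.30) and Cd53 (0.08) stayed within 1.5-fold. With 5 CPM added, the DN value of Cd52 was 0.11 with gate thresholds halved, and that of Thy1 was 0.31 with gate thresholds doubled, 0.30 with the gate on thinned cells, 0.40 with totals without ribosomal protein and mitochondrial genes and 0.46 with median-of-ratios size factors. Under the last 3 of these settings Ly6e was also within 1.5-fold (0.48, 0.44 and 0.51), and Cd28 changed sign with gate thresholds doubled (-0.075). The summed level of the DN marker list also differed within the stage, at 2127 CPM in wild type against 4067 in mutant, with 2 of 9 markers at 0 in wild type and none in mutant. The innate-like list was at 205 CPM (7 of 9 genes at 0) and 411 CPM (5 of 9 at 0). Gzma alone gave 108 and 224 CPM of these sums, and it was not used to set innate-like cells aside. The part of either list in these ratios was not tested. The median log2 ratio of genes with at least 50 CPM in both libraries was 0.18 in DN, 0.16 in cycling and 0.12 in resting DP cells and under 0.1 in the other stages, so ratios relative to it are smaller by as much.

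In cycling cells Cd2 was at 56.6 CPM in wild type against 113 in mutant (0.99, 0.73 to 1.26), Cd52 at 125 and 218 (0.80, 0.62 to 0.98) and Cd28 at 135 and 213 (0.66, 0.48 to 0.84), beside 7.81% of all genes tested that were higher and 2.09% that were lower. Cd52 in mutant cycling cells was unevenly spread, since 7 of 314 cells gave 50% of its UMIs, against 31 of 587 in wild type. The thinned share of cycling cells with a Cd52 UMI was 14.8% in wild type (12.04% to 18.0%) and 15.4% in mutant (11.6% to 19.9%), and for Cd2 it was 9.20% (6.99% to 11.8%) and 10.6% (7.42% to 14.6%). For Cd28 it was 19.3% (16.1% to 22.7%) and 32.5% (27.3% to 38.0%). Of the 3, Cd28 was thus the gene whose share of cells differed beyond counting error. With 5 CPM added and cells thinned to 1500 UMIs, the log2 ratios of Cd2 (0.39) and Cd52 (0.50) were within 1.5-fold, as was that of Cd52 with equal weight per cell (0.51) and with gate thresholds doubled (0.53). Cd28 was within 1.5-fold with totals without ribosomal protein and mitochondrial genes (0.50) and with median-of-ratios size factors (0.48). Summed marker lists also differed between the libraries within cycling cells. Wild type first, the post-selection list was at 128 and 252 CPM, the SP list at 244 and 390 and the DN list at 77.0 and 324. The DP list went the other way, at 3922 and 2967 CPM. The part of these lists in the cycling ratios was not tested.

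Resting DP cells had no member past 1.5-fold higher, beside 13% of all genes tested. Thy1 came nearest, at 1325 and 1834 CPM (0.47, 0.35 to 0.59). Cd53 was the member that was lower, at 47.8 CPM in wild type (34 UMIs in 19 of 279 cells, of which 5 cells gave 50%) and 14.1 in mutant (13 UMIs in 12 of 442 cells), a log2 ratio of -1.76 (-2.80 to -0.80), where 4.91% of all genes tested were lower. In the 185 wild type and 253 mutant resting DP cells without a UMI of the post-selection list, Ccr7, S1pr1 or Klf2, a subset added after seeing the data, Cd53 had 5 and 4 UMIs and its ratio was -0.55 (-2.88 to 1.66). The Cd53 value with 5 CPM added was also within 1.5-fold with gate thresholds halved (-0.025), with the gate on thinned cells (-0.20) and with stages from clustering (-0.47). Cd2 was at 108 and 70.7 CPM in all resting DP cells (-0.61, -1.11 to -0.12), and at 84.4 and 44.0 CPM in that subset, a log2 ratio of -0.94.

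In post-selection cells Cd24a was at 343 CPM in wild type against 599 in mutant (0.80, 0.44 to 1.18) and Ly6d at 239 and 419.9 (0.81, 0.38 to 1.26), beside 13.1% of all genes tested that were higher and 6.37% that were lower. Cd24a, with 5 CPM added, was within 1.5-fold with gate thresholds halved (0.52) and with the gate on thinned cells (0.40), and Ly6d with gate thresholds doubled (0.22). Of the 64 wild type Ly6d UMIs in this stage 21 came from 1 cell. Both members were at their lowest in SP cells. Cd24a was also higher in semi-mature SP cells of the mutant library, at 93.3 and 163 CPM (0.80, 0.27 to 1.36), where 11.1% of all genes tested were higher and 5.15% lower. In that stage 28 of 144 wild type and 51 of 225 mutant cells held a Cd24a UMI, and after thinning 18 of 144 (interval 7.58% to 19.0%) and 33 of 220 (10.6% to 20.4%), which did not differ beyond counting error. The ratio with 5 CPM added was 0.30 with the gate on thinned cells and 0.56 with the same lower limit of UMIs.

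In mature SP cells Ly6d was lower in the mutant library, at 58.1 CPM (22 UMIs) and 29.997 CPM (28 UMIs), a log2 ratio of -0.95 (-1.81 to -0.08), where 5.85% of all genes tested were lower and 12.2% higher. Its wild type value rests on few cells, and with 5 CPM added the ratio was within 1.5-fold with cells thinned to 1500 UMIs (-0.55), with gate thresholds halved (-0.37) and with gate thresholds doubled (-0.51). Ly6e was lower in mutant SP cells without passing 1.5-fold, by a log2 ratio of -0.46 (-0.71 to -0.22) in semi-mature and -0.36 (-0.63 to -0.09) in mature cells. Among CD4 SP cells Ly6e was at 571 CPM in wild type against 314 in mutant (-0.86, -1.23 to -0.49), past 1.5-fold beside 8.95% of all genes tested that were lower and 12.9% that were higher. Cd52 was also lower in mutant SP cells, by -0.25 (-0.35 to -0.15) in semi-mature and -0.21 (-0.30 to -0.11) in mature cells, while over all cells it was higher. Cd2 and Cd53 were higher in mature SP cells without passing 1.5-fold, at 427 and 565 CPM (0.40, 0.14 to 0.66) and at 327 and 412 CPM (0.33, 0.04 to 0.64).

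**Figure D5:**
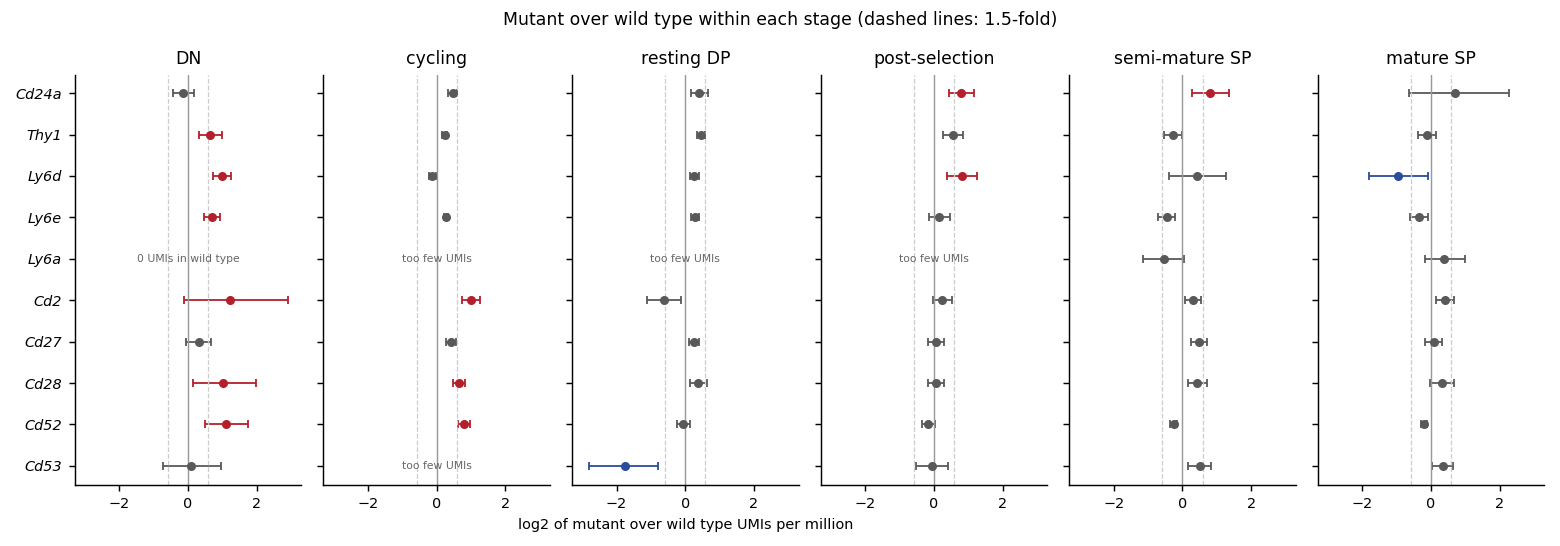
Log2 ratio of mutant over wild type level (horizontal axis) for each member (vertical axis) in each of 6 stages (panels), with 95% counting intervals. Red and blue points are more than 1.5-fold higher or lower after 5 CPM are added to both levels, and the dashed lines mark 1.5-fold. Red points are most frequent in DN cells, resting DP cells have a blue point for Cd53, and mature SP cells a blue point for Ly6d.

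Of the 120 values of 10 members in 6 stages and 2 libraries, 13 rest on few cells, meaning that fewer than 10 cells held a UMI of the gene or that 1 cell gave more than 20% of its UMIs. Of these, 7 are of Ly6a, 3 of Ly6d and 1 each of Cd24a, Cd2 and Cd52, and Thy1, Ly6e, Cd27, Cd28 and Cd53 had none. The Cd2 and Cd52 values are those of wild type DN cells, with 5 UMIs in 4 cells and 27 UMIs in 10 cells.

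A background level was read from cells that should lack a transcript. In B and antigen-presenting cells, which should lack Thy1 and Cd28, Thy1 was at 637 CPM in 5 wild type cells and 324 CPM in 39 mutant cells, and Cd28 at 84.9 and 59.6 CPM. The mutant Thy1 value rests on few cells, since 10 of the 39 cells held a Thy1 UMI and 1 of them gave 14 of the 38 UMIs. Whether these UMIs came from RNA outside the cell or from doublets was not tested. The Cd28 level of wild type DN cells, 70.2 CPM, lay within the range of these 2 background values. Both Cd28 background values rest on few cells and have wide counting intervals. The wild type value had 2 UMIs in 2 of the 5 cells (10.3 to 307 CPM). The mutant value had 7 UMIs in 6 of the 39 cells (23.96 to 123 CPM). With cells thinned to 1500 UMIs, 18.4% of these mutant cells (7.74% to 34.3%) held a Thy1 UMI, against 45.6% of mutant mature SP cells, where Thy1 was low for a thymocyte, and 90.1% of resting DP cells. The median depth of the mutant B and antigen-presenting cells was 2330 UMIs, that of mutant mature SP cells 3152.5 and that of mutant resting DP cells 1831.5. No stage of either library had a thinned Thy1 share as low as that of the mutant B and antigen-presenting cells. The wild type value of 637 CPM was above the wild type Thy1 levels of DN (491), post-selection (567), semi-mature SP (480.0) and mature SP cells (480.3). It rests on 15 UMIs in 4 of the 5 cells, of which 1 gave 7, and the thinned share was 40% (5.27% to 85.3%).

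For each member, the 2 genes that followed its pattern most closely were taken over the 12 combinations of stage and library, by Pearson's r of log2(CPM + 5) among 4470 genes with at least 50 CPM in a combination. The points share libraries and marker gates, and r is given as a description. They were Myb (0.96) and Marcksl1 (0.94) for Cd24a, Aqp11 (0.98, itself a DP gate gene) and Rapgef3 (0.98) for Ly6d, Hist3h2ba (0.97) and Anxa2 (0.97) for Thy1, and Auh (0.94) and Xrcc6 (0.94) for Ly6e. Ly6a was closest to Rasa3 (0.94) and H2-Q4 (0.92), and Cd52 to Ppp1r18 (0.99) and Arhgef1 (0.98). Cd2 was closest to Stk17b (0.98) and Itgb2 (0.96), Cd27 to Tespa1 (0.95) and Zfp292 (0.95), Cd28 to Ppp1r16b (0.96) and Dok2 (0.96), and Cd53 to Samhd1 (0.98) and Klk8 (0.97).

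Of 30 other surface antigen genes tested over all cells, 14 were higher and 1 lower in the mutant library by more than 1.5-fold, with a median log2 ratio of 0.55 beside 0.08 over all genes, of which 7.11% were higher and 2.86% lower. By stage, 9 were higher and 0 lower of 23 tested in DN, 6 and 3 of 25 in cycling, 4 and 2 of 25 in resting DP, 4 and 5 of 26 in post-selection, 6 and 5 of 32 in semi-mature SP and 5 and 2 of 33 in mature SP cells. Over all genes tested, the shares higher and lower were 28.8% and 5.53% in DN, 7.81% and 2.09% in cycling and 13% and 4.91% in resting DP cells. They were 13.1% and 6.37% in post-selection, 11.1% and 5.15% in semi-mature SP and 12.2% and 5.85% in mature SP cells. Cd200, a ligand of an inhibitory receptor, was at 19.4 CPM in wild type against 91.4 in mutant (2.24, 1.959 to 2.525), and H2-Q7, which encodes a Qa-2 antigen of mature thymocytes, at 39.4 and 135 (1.78, 1.58 to 1.98). The tetraspanin gene Cd81 was at 124 and 71.1 CPM (-0.80, -0.97 to -0.64), and Slamf1 had a ratio of -0.43. Of 12 receptor partner genes tested 1 was higher, the kinase gene Fyn (0.71, 0.50 to 0.92), and 1 was lower, Siva1, whose protein binds CD27 (-0.68, -0.80 to -0.55). Cd2bp2, whose protein binds the tail of CD2, had a ratio of 0.13. None of 9 tested genes of GPI anchor synthesis, which the 6 anchored members depend on, was past 1.5-fold, with ratios from -0.24 for Dpm3 and -0.10 for Gpaa1 to 0.34 for Pigp and 0.39 for Pigx. Some genes of this list, such as Cd5, Cd69 and Il7r, are also gate genes. In mature SP over resting DP cells, 16 of 30 other antigens were higher and 7 lower in wild type, and 17 of 32 higher and 6 lower in mutant, beside the 9.53% and 41.6% of all genes in wild type and 11% and 43.5% in mutant. Among them H2-K1 had ratios of 3.94 and 4.08.

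Ly6a and Ly6e are interferon-inducible, and 10 of 12 tested interferon response genes were higher by more than 1.5-fold in the mutant library over all cells, beside 7.11% of all genes tested. Within stages, 4 of 11 tested were higher and 1 lower in DN cells, with a median log2 ratio of 0.04 beside 0.27 over all genes. Of all genes tested there, 28.8% were higher and 5.53% lower. In cycling, resting DP and post-selection cells 5 of 8, 5 of 10 and 5 of 7 were higher and 0 lower. The shares of all genes tested that were higher in these stages were 7.81%, 13% and 13.1%. In semi-mature SP cells 2 of 15 were higher and 1 lower (median 0.08) and in mature SP cells 1 of 15 was higher and 0 lower (median 0.02), beside medians of 0.08 and 0.09 over all genes. Of all genes tested in these 2 SP stages, 11.1% and 12.2% were higher. The ratios over all cells ran from 2.01 for Usp18 (1.52 to 2.52) and 1.37 for Isg15 (1.16 to 1.59) down to 0.66 for Xaf1 and 0.40 for Bst2, which was within 1.5-fold. The summed level of that list was 773 CPM in wild type against 1613 in mutant over all cells. By stage it was 809.7 and 981 CPM in DN, 285 and 479 in cycling, 553 and 792 in resting DP, 571 and 1196 in post-selection, 2500 and 2754 in semi-mature SP and 3686 and 4467 in mature SP cells. The list thus rose between post-selection and semi-mature SP cells, the step at which Ly6a rose, while Ly6e had fallen 1 step before it. Its part in the Ly6a and Ly6e values was not tested.

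Some reads of these genes can be shared with other loci. Of the 31-base words in the last 500 bases of its transcripts, Ly6a shared 25.6% with other annotated genes, among them Ly6c1, Ly6c2, Ly6f, Ly6g and Ly6i, so its counts are uncertain to that extent. The share was 5.96% for Cd24a, with the predicted genes Gm15352 and Gm6212, 0.898% for Ly6e and 0.865% for Cd27, and 0% for the other 6 members. Exons of Cd27 overlap the span of Vamp1 on the opposite strand over 2328 bases and those of Cd52 the span of Crybg2 over 272 bases, and whether strand was used in counting is not given in the sources used here.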

How the data were processed

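The authors deposited tables of raw UMI counts per gene and cell, 1 table for each library. Cell Ranger and the genome build mm10 are named per the submitters' processing notes, and no version, cell filter or annotation is given in the sources used here. Barcodes with fewer than 400 genes or more than 10% mitochondrial UMIs were left out (5 in wild type and 6 in mutant), and so were 3 and 5 barcodes called as doublets by Scrublet in scanpy (version 1.11.5). These calls were 0.26% of the 3083 barcodes. Since the caller had marked so few, doublets were also treated by leaving out the highest 4% of scores.

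Stages were set in order, from UMIs of marker lists. Cells with at least 10 UMIs of another cell type were set aside, where Gzma was not counted for innate-like cells. Cells with at least 25 cycling UMIs per 10000 were called cycling. DN, SP, post-selection and resting DP cells needed at least 3 marker UMIs and 10 per 10000. Mature SP cells needed at least 2 UMIs of the mature marker list, which holds S1pr1 and Klf2, and 5 per 10000. SP markers had to outnumber those of resting DP cells. These thresholds were set after seeing the sums of marker UMIs. The members and all lists were chosen with earlier results of these data known.

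UMIs were summed per library and stage over all genes with Python 3.11.15, numpy 2.4.6 and pandas 2.3.3. Levels have exact Poisson intervals, ratios exact conditional binomial intervals and shares exact Clopper-Pearson intervals (scipy 1.17.1), all at 95%. A gene was tested with at least 20 CPM in 1 group and 20 UMIs in both together, and counted as past the fold at 1.5-fold with 5 CPM added. PCR copies are collapsed by UMIs, but cells are not replicates, and nothing says how many mice entered a library. The sums were checked on simulated counts. The named genes were all members in every stage, the 2 genes most alike to each member, and the 2 highest and 2 lowest of each other list over all cells, of which 1 is not reported here. A further division of SP cells by a Cd24a UMI, made over all SP and within semi-mature SP cells, was chosen after seeing the data. To compare shares of cells, cells were thinned to 1500 UMIs, which left out 97 mutant and 0 wild type cells. Of the 27933 symbols, 26646 matched GENCODE M21, and 2 members had a promoter entry. The alternatives covered scaling, depth, filters, fold, gate, cell filters and single cells.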

Additional observations from a re-analysis of the deposited data

Results flagged for a closer look

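The 7 results below are given again because the libraries or stages moved in opposite directions, with counting intervals that exclude 0 on both sides. None of these differences was tested, since there was 1 library per genotype. Cd2 rose from cycling to resting DP cells in wild type (log2 ratio 0.93, 0.55 to 1.31) and fell in the mutant library (-0.67, -1.09 to -0.27), a difference of -1.61. The same 4 values, read between libraries, give Cd2 higher in mutant cycling cells (0.99) and lower in mutant resting DP cells (-0.61), 1.61 apart. With cells thinned to 1500 UMIs the first of these was 0.39 with 5 CPM added, within 1.5-fold. Marker lists also differed between the libraries within cycling cells, and their part in the Cd2 values was not tested.

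The other 5 are members whose mutant over wild type ratio changed sign between stages. Cd53 was higher in mutant semi-mature SP cells (0.50) and lower in mutant resting DP cells (-1.76), 2.25 apart, the latter on 34 and 13 UMIs. With 5 CPM added, that Cd53 value of -1.46 ran from -1.80 to -0.025 over 15 other settings, past 1.5-fold in 12 of them, and in resting DP cells without later markers, a subset added after seeing the data, it was -0.55 (-2.88 to 1.66) on 5 and 4 UMIs. Ly6d was higher in DN cells (0.99) and lower in mature SP cells (-0.95), 1.94 apart. Cd52 was higher in DN cells (1.09) and lower in semi-mature SP cells (-0.25), 1.35 apart. Ly6e had ratios of 0.69 and -0.46 in those stages, 1.15 apart. Thy1 had ratios of 0.65 and -0.27, 0.92 apart, the second with an interval that ends at -0.0007. All of these except Cd53 use the 40 wild type DN cells.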

How the results depend on the processing

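No paired analysis was possible because each genotype had 1 library, and for the same reason no replicate could be left out. The 15 other settings of scaling, depth, filters, fold, gate and single cells gave 643 values of 43 single results, of which 566 moved by less than their counting interval, 76 moved more and 1, of a value past 1.5-fold, changed sign: Cd28 in DN cells, at -0.075 with gate thresholds doubled. Over all cells Thy1 (-0.06 to 0.07) and Ly6d (-0.08 to 0.10), both within 1.5-fold, lay on both sides of 0. Of 37 single values past 1.5-fold, 20 stayed past it under every one of them other than a 2-fold threshold. Stages from clustering without the members gave no post-selection class, so the counts by stage could not be had there. The 4 members higher over all cells became 2 with cells thinned to 1500 UMIs, 2 with equal weight per cell, 1 at 2-fold and 0 with stages weighted equally, where Cd52 reversed to -0.15. Of values by stage, the 2 lower ones became 4 without ribosomal protein and mitochondrial genes, with median-of-ratios size factors, with equal weight per cell and with the gate doubled, and 1 at 2-fold, and the 13 higher ones became 3 at 2-fold. The 14 other surface antigens that were higher became 8 thinned and 7 at 2-fold, and the 1 lower became 0 at 2-fold. The 1 receptor partner that was higher became 2 without ribosomal protein and mitochondrial genes, with the same lower limit of 1781 UMIs and without the highest doublet scores, 3 with no level filter, and 0 when thinned, with equal weight per cell and at 2-fold, where the 1 lower also became 0. The 10 interferon genes became 5 at 2-fold. The mutant minus wild type difference in the share of cycling cells moved to -20.9 points with the gate doubled and -21.3 with the same lower limit. That of mature SP cells became 4.23 with the gate doubled, 4.25 with the gate on thinned cells and 9.78 with the same lower limit, and that of resting DP cells 1.26 with the gate doubled and, reversed, -3.53 with the same lower limit. The cause was not tested. Depth limits Ly6a before the SP stages and Ly6d after the DP stage, where single cells carry much of the count.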
